A study of Mus musculus with 6 samples.

Results

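Aminoacyl-tRNA synthetases are the enzymes that join each amino acid to its transfer RNA before protein synthesis. Their 36 genes were picked by symbol from the 40428 features counted in mouse subcutaneous white adipose tissue. No threshold on measured values was used, but earlier results of these data were known. The group holds 20 genes for cytosolic enzymes and 16 genes for mitochondrial enzymes, whose symbols end in 2. RNA sequencing had been made from 3 control mice with floxed (flox/flox) Nampt alleles and 3 ANKO mice, in which Nampt was deleted with an adiponectin-Cre transgene, active in adipocytes. Nampt is the rate-limiting enzyme of the NAD salvage pathway. All 6 mice were on a C57BL/6J background, fed regular chow and kept at room temperature, and the labels state neither sex nor age. The tissue was taken whole, so each library also held RNA of cells in which this Cre is not active. The labels describe the controls as flox/flox and name no other allele in them.

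Cells keep separate sets of synthetases for the cytosol and for the mitochondrial matrix, nearly all encoded by different nuclear genes. Exceptions are Gars and Kars, whose products charge glycine and lysine in both places. Eprs joins the cytosolic glutamyl and prolyl enzymes in a single protein, while their mitochondrial counterparts are separate genes, Ears2 and Pars2. When amino acids run short or organelles are stressed, kinases phosphorylate the initiation factor eIF2, and translation of the transcription factor ATF4 rises. ATF4 is known to bind C/EBP-ATF response elements in many genes of amino acid supply, cytosolic synthetase genes among them. The mitochondrial enzymes charge the transfer RNAs that translate the few proteins of the respiratory chain encoded in mitochondrial DNA.

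The short sequences that the report returns to are the C/EBP-ATF element cores near the start sites of cytosolic synthetase genes. RefSeq promoters (GRCm38.p6) running from 250 bases before to 50 bases after a gene's start were found for 26 of the 36 genes, in 27 windows of 300 bases. The 10 genes without a promoter in the table were Cars, Hars, Lars, Mars, Nars, Rars, Vars, Wars, Hars2 and Pars2. The core TGATGNAA, which reads TTNCATCA on the other strand, was searched on both strands. It was present in 5 of 12 cytosolic windows (41.7%), in 0 of 15 mitochondrial windows and in 1304 of 32851 windows of all promoters (3.97%). Each line below gives 30 bases around a match on the strand of the gene, 5′ to 3′, with the match in capitals.
Aars: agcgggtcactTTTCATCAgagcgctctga
Gars: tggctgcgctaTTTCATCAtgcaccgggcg
Iars: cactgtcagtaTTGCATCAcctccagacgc
Tars: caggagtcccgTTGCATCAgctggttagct
Yars: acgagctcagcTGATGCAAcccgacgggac
The Aars stretch lay at chr8:111033840-111033869 on the plus strand, and its match began at position 10 after the RefSeq start, counting the first transcribed base as 1. A further match in the Aars window, not printed above, began 112 bases before the start. The Gars stretch lay at chr6:55037960-55037989 (plus strand) and its match began 30 bases before the start. For Iars, the stretch was chr13:49682126-49682155 (plus strand), with the match from position 8 of the transcript. The Tars stretch was chr15:11399655-11399684 (minus strand), with the match from 15 bases before the start, and that of Yars was chr4:129189895-129189924 (plus strand), with the match from position 4. The unrelated core GCGCATGC of the NRF1 motif, searched in the same way, was in 0 of 12 cytosolic windows, in 3 of 15 mitochondrial windows (20%, in Rars2, Vars2 and Wars2) and in 891 of all 32851 windows (2.71%). A match describes the letters only and does not show that a factor binds there.

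Library totals were 19748962 to 23860596 counts, of which 39749 to 66946 per library fell on the 36 genes. Levels below are in CPM, the count scaled to a common library size with TMM factors. Nampt itself measured 83.5, 92.9 and 86.9 CPM in control mice 1 to 3 and 48.5, 50.1 and 47.0 CPM in ANKO mice 1 to 3, a log2 fold change of −0.85 (adjusted p = 0.00416). The residual level is that of the whole tissue. Adipocyte markers were abundant in every library, as the tissue label requires. Of the 12 adipocyte markers 5 fell (Cfd, Retn, Acvr1c, Adipoq and Plin1). The summed level of all 12 was 12806 to 19308 CPM in controls and 5285 to 7879 CPM in ANKO mice. Cfd alone averaged 6961 CPM in controls and 1146 CPM in ANKO mice, within sums averaging 16494.5 and 6566 CPM. Groups overlapped in Cidec, Pparg, Fabp4, Pnpla2 and Slc2a4, and Slc2a4 had the only positive log2 fold change of the 12 (0.15). Of 14 macrophage markers 3 rose (Adgre1, Gpnmb and Trem2), with summed levels of 800 to 937 CPM against 1144 to 1414 CPM. Of 5 mast cell markers tested 4 rose (Mcpt4, Cma1, Tpsb2 and Cpa3). The mast cell sum, 66.9 to 135 against 148 to 204 CPM, was mostly Kit, which did not pass. Kit averaged 84.4 CPM in controls and 116 CPM in ANKO mice, with overlapping groups, within sums averaging 112 and 184 CPM. None of the 14 skeletal muscle markers tested changed (smallest p Mb), but their sum ranged from 1583 to 9816 CPM in controls and from 102 to 18846 CPM in ANKO mice, highest in ANKO 1 and lowest in ANKO 3. No gene passed among 9 T and B cell (smallest p Cd3d), 5 plasma cell (Xbp1), 9 fibroblast (Dcn), 7 endothelial (Kdr) and 6 mammary epithelial markers (Krt5). The mammary epithelial sum also varied widely between mice, at 884, 1656 and 219 CPM in controls 1 to 3. In ANKO mice 1 to 3 it was 1033, 786 and 681 CPM. Of 15 interferon response genes 1 rose (Rsad2). No marker tested was at 0 in all 6 libraries. Beside these marker counts, 0.488% of all features tested rose and 1.10% fell at an adjusted p under 0.05 (edgeR).

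All 36 genes were among the 19272 features tested. No cytosolic gene passed the test at an adjusted p under 0.05, while 7 of 20 were higher in ANKO mice at an unadjusted p under 0.05 and 0 were lower. Of the 16 mitochondrial genes 1 fell (Iars2) and none rose, and at an unadjusted p under 0.05 3 were lower and 0 higher. Over all features tested, 0.488% rose and 1.10% fell at the adjusted threshold, and 6.02% were higher and 6.91% lower at an unadjusted p under 0.05. The median log2 fold change was 0.11 for the cytosolic genes (range −0.14 to 0.42), −0.03 for the mitochondrial genes (range −0.55 to 0.41) and 0.0006 for all features. Among the cytosolic genes 17 fold changes were positive and 3 negative, and among the mitochondrial genes 7 were positive and 9 negative. A difference between the 2 sets was not tested.

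**Figure D1:**
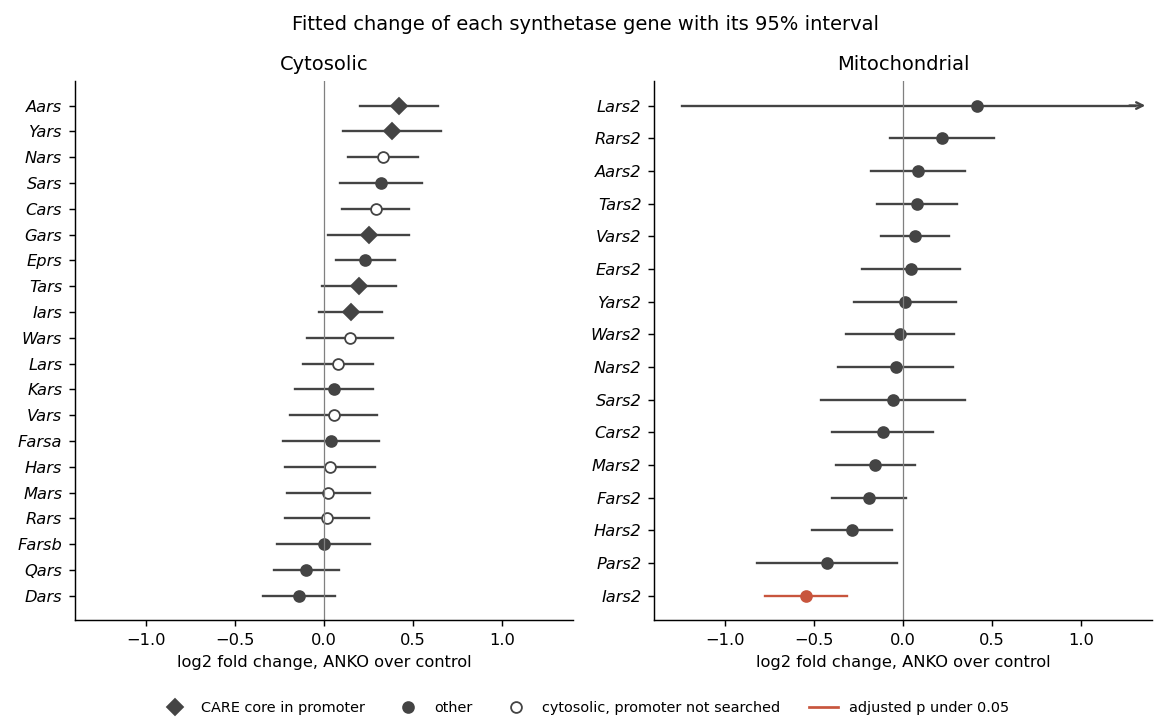
Fitted log2 fold change (ANKO over control, x axis) of each synthetase gene (y axis) with its 95% interval, cytosolic genes on the left and mitochondrial genes on the right. Diamonds mark genes with the response element core in the promoter window, open circles cytosolic genes whose promoter was not in the table, red an adjusted p under 0.05, and the arrow an interval that continues to 2.07. Iars2 is the only red point, at −0.55, and 7 cytosolic intervals lie above 0.

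Summed over the 20 cytosolic genes, the level was 1277, 1349 and 1265 CPM in control mice 1 to 3 and 1397, 1513 and 1418 CPM in ANKO mice 1 to 3. The groups did not overlap, and their means were 1297 ± 45.6 and 1443 ± 62.0 CPM (SD, n = 3 each), a ratio of 1.11. In 9 of the 20 genes (Aars, Nars, Cars, Eprs, Sars, Yars, Gars, Tars and Iars) every ANKO mouse was above every control mouse, and in 0 of the 20 every ANKO mouse was below. Of all features tested, 9.18% were separated upward in this way and 10.2% downward.

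Aars, the alanyl-tRNA synthetase gene, had the smallest p among the cytosolic genes. It measured 85.6, 85.3 and 91.4 CPM in controls and 104.6, 129.4 and 117.7 CPM in ANKO mice. The 3 controls lay close together, and the lowest ANKO mouse was above the highest of them. Means were 87.4 ± 3.44 and 117 ± 12.4 CPM (SD, n = 3), and the fitted log2 fold change came to 0.42 (SE 0.095, 95% interval 0.20 to 0.64, adjusted p = 0.0872 with edgeR). DESeq2 gave an adjusted p of 0.0115 and edgeR without a low-count filter 0.0493, so the call depended on the test and the filter. Of the exon bases of Aars, 15.1% also belong to Exosc6 on the same strand or to a small RNA gene on the opposite strand.

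Nars, for the asparaginyl enzyme, measured 65.4, 63.9 and 59.1 CPM in controls and 73.4, 84.2 and 79.3 CPM in ANKO mice. Its log2 fold change was 0.33 (SE 0.085, adjusted p = 0.128), with no overlap between groups. Cars, for the cysteinyl enzyme, measured 32.9, 34.6 and 34.5 CPM against 39.9, 41.6 and 43.4 CPM. All 6 values sat within a narrow range around their group means, giving a log2 fold change of 0.29 (SE 0.082, adjusted p = 0.162).

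Sars, the seryl enzyme, was at 73.2, 81.8 and 77.7 CPM in controls and at 85.2, 105.5 and 99.8 CPM in ANKO mice, with ANKO 1 nearest to the controls. The log2 fold change of Sars was 0.32 (adjusted p = 0.203). Eprs, the glutamyl-prolyl enzyme, had narrow groups that did not overlap, with 130.1, 130.8 and 135.4 CPM in controls and 151.6, 159.5 and 154.6 CPM in ANKO mice. The log2 fold change of Eprs was 0.23 (SE 0.073, adjusted p = 0.205). Yars, the tyrosyl enzyme, measured 35.8, 38.2 and 32.8 CPM against 44.3, 53.6 and 41.3 CPM, a log2 fold change of 0.38 (SE 0.119, adjusted p = 0.205). Its ANKO mice spread more widely than its controls but did not reach them.

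Gars and Kars, which each serve cytosol and mitochondria, differed in their values. Gars (glycine) measured 67.5, 75.3 and 75.1 CPM in controls and 78.7, 96.6 and 83.9 CPM in ANKO mice, and its log2 fold change was 0.25 (adjusted p = 0.331). Kars (lysine) measured 55.4, 62.3 and 61.2 CPM against 57.6, 68.5 and 59.6 CPM, with overlapping groups. The log2 fold change of Kars was 0.05 with a 95% interval of −0.17 to 0.27 (adjusted p = 0.884). A difference between Gars and Kars was not tested.

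The other cytosolic genes lay closer to 0. Tars (threonine) had a log2 fold change of 0.20 (adjusted p = 0.419) and Iars (isoleucine) of 0.15 (adjusted p = 0.476), both with separated groups. Iars measured 59.9, 59.4 and 59.4 CPM in controls and 70.7, 62.9 and 64.9 CPM in ANKO mice. Wars (tryptophan), known as an interferon-inducible synthetase, had a log2 fold change of 0.15, and its values of 62.6, 68.2 and 64.5 CPM against 79.5, 74.7 and 62.0 CPM overlapped because ANKO 3 was the lowest of all 6. Lars (leucine), Vars (valine), the phenylalanyl subunits Farsa and Farsb, Hars (histidine), Mars (methionine) and Rars (arginine) had log2 fold changes between −0.0016 and 0.08, all with overlapping groups. The lowest cytosolic value was that of Dars (aspartate), −0.14, with 47.2, 54.3 and 53.5 CPM in controls and 46.2, 48.9 and 45.4 CPM in ANKO mice (adjusted p = 0.581). Qars (glutamine) was at −0.10.

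**Figure D2:**
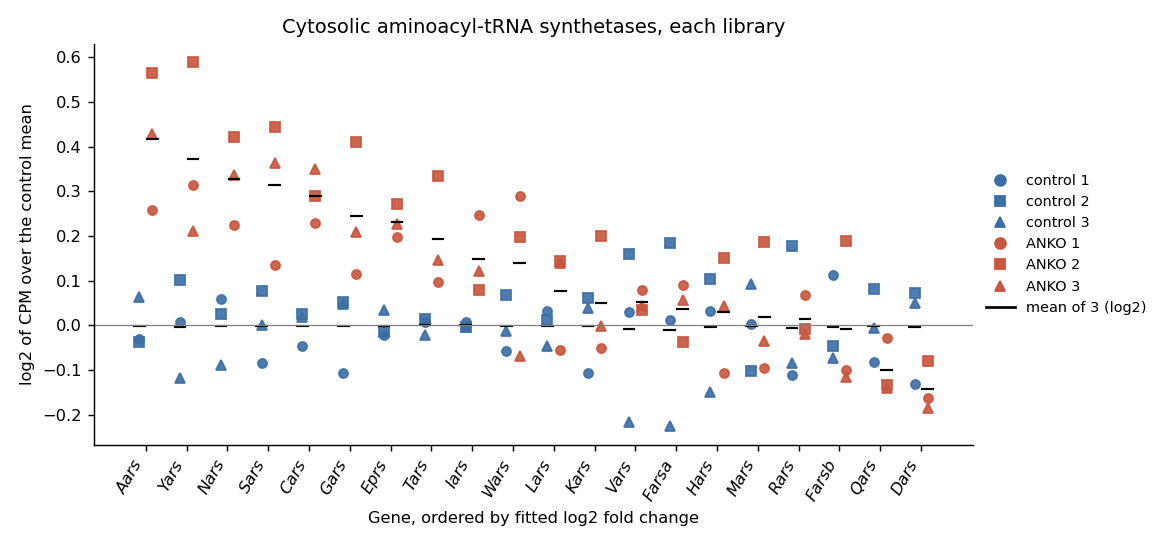
Each library's level of the 20 cytosolic synthetase genes as log2 of CPM over the control mean (y axis), with genes ordered by fitted fold change (x axis). Blue marks controls, red ANKO mice, the marker shape the mouse number and the black bar the mean of 3. In the 9 genes from Aars to Iars all red points lie above all blue points, and ANKO 2 (red square) is the highest of the 3 ANKO mice in 7 of them.

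Several groupings of the cytosolic enzymes were compared by their counts alone. Synthetases fall into unrelated structural classes, I and II. The 10 class I genes had a median log2 fold change of 0.11 with 4 separated upward, and the 10 class II genes had a median of 0.13 with 5 separated upward. The 8 enzymes that assemble into the multisynthetase complex (Dars, Eprs, Iars, Kars, Lars, Mars, Qars and Rars) had a median of 0.04, and 2 of the 8 (Eprs and Iars) were separated upward. The share separated upward among all features tested was 9.18%. Complex and free enzymes were not tested against each other.

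The response element cores shown above can be set beside these values as a description. The 5 genes with a core (Aars, Yars, Gars, Tars and Iars) had log2 fold changes of 0.15 to 0.42 (median 0.25), and 5 of 5 were separated upward. The 7 genes with a searched promoter and no core (Dars, Eprs, Farsa, Farsb, Kars, Qars and Sars) had log2 fold changes of −0.14 to 0.32 (median 0.04), and 2 of 7 (Eprs and Sars) were separated upward. Among all features tested, 9.18% were separated upward. Nars and Cars, both separated upward, were among the genes whose promoter was not in the table. No test was made of this difference, and the absence of these letters in 300 bases says nothing about elements elsewhere.

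Iars2, for the mitochondrial isoleucyl-tRNA synthetase, was the only synthetase gene whose level passed the adjusted threshold. It measured 103.4, 115.1 and 128.8 CPM in control mice 1 to 3 and 79.4, 83.6 and 74.5 CPM in ANKO mice 1 to 3. Every ANKO mouse was well below the lowest control, and the controls spread more than the ANKO mice. Means were 116 ± 12.7 and 79.2 ± 4.55 CPM (SD, n = 3), and the fitted log2 fold change came to −0.55 (SE 0.0995, 95% interval −0.78 to −0.32, adjusted p = 0.0421), or 0.684 of the control level. In bulk tissue, fewer cells of a type and less RNA per cell cannot be told apart, and the adipocyte marker sum moved in the same direction (5285 to 7879 against 12806 to 19308 CPM). The part of cell makeup in the Iars2 result was not tested.

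The Iars2 call lay near the threshold. It was lost with limma-voom (adjusted p = 0.0640), robust=FALSE (0.0542), the replicate block (0.0932) and the muscle covariate (0.110), and when control 2 (0.125), control 3 (0.0994), ANKO 1 (0.122), ANKO 2 (0.0917) or ANKO 3 (0.179) was left out, while DESeq2 gave 0.00102. Its log2 fold change stayed between −0.62 and −0.45 when each library was left out in turn.

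Iars2 lies on chromosome 1 (GRCm38, 185284726 to 185329396, minus strand), and Eprs lies further along the same chromosome (185363044 to 185428360, plus strand). Eprs had a fold change of the opposite sign, as given above. Of the exon bases of Iars2, 24.2% overlap other genes, Rab3gap2 on the opposite strand among them, and the labels do not say whether reads were counted by strand. Rab3gap2 measured 84.8, 84.8 and 95.4 CPM in controls and 82.5, 100.02 and 93.3 CPM in ANKO mice (log2 fold change 0.06, adjusted p = 0.876), with overlapping groups. Divided by Iars, its cytosolic counterpart, Iars2 gave CPM ratios of 1.73, 1.94 and 2.17 in controls and 1.12, 1.33 and 1.15 in ANKO mice. These ratios compare libraries and not the levels of the 2 genes, whose transcripts differ in length.

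**Figure D3:**
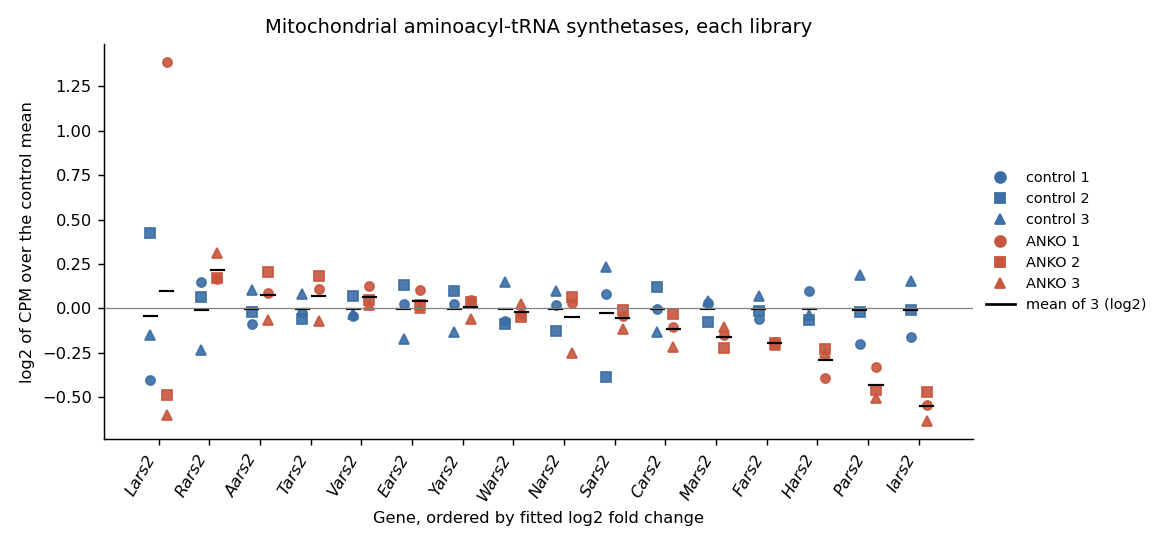
Each library's level of the 16 mitochondrial synthetase genes as log2 of CPM over the control mean (y axis), with genes ordered by fitted fold change (x axis), and colours, shapes and bars as for the cytosolic genes. Iars2, at the right end, and Pars2, Hars2, Fars2 and Mars2 have all red points below all blue points, and the Lars2 point of ANKO 1 stands far above the rest.

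The mitochondrial genes next in order of p also had lower values in every ANKO mouse but did not pass the test. Hars2 (histidine) measured 32.3, 28.8 and 29.4 CPM in controls and 23.0, 25.8 and 25.4 CPM in ANKO mice, a log2 fold change of −0.29 (adjusted p = 0.248). Hars2 and Hars lie head to head and share 4.56% of the exon bases of Hars2, and Hars was at 0.03. Pars2 (proline) was the lowest-counted member, with 119 to 174 counts per library, and measured 6.8, 7.8 and 9.0 CPM against 6.3, 5.7 and 5.5 CPM. The gap between its lowest control and its highest ANKO mouse was small, and its log2 fold change was −0.43 (SE 0.17, adjusted p = 0.340).

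Fars2 (phenylalanine) measured 27.2, 28.0 and 29.7 CPM in controls and 24.9, 24.8 and 24.6 CPM in ANKO mice, with ANKO mice almost equal to each other, and its log2 fold change was −0.19 (adjusted p = 0.425). Mars2 (methionine) was separated downward as well, at −0.16 (adjusted p = 0.569). In the upward direction only Rars2 (arginine) was separated, at 0.22 (adjusted p = 0.552). Mitochondrial genes separated downward thus numbered 5 of 16 and upward 1 of 16, beside 10.2% and 9.18% of all features. Aars2, Cars2, Ears2, Nars2, Sars2, Tars2, Vars2, Wars2 and Yars2 had log2 fold changes of −0.11 (Cars2) to 0.08 (Aars2) with overlapping groups.

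Lars2, for the mitochondrial leucyl enzyme, was unlike the other members in its spread. It measured 303, 537 and 362 CPM in controls and 1049, 285.5 and 265 CPM in ANKO mice. ANKO 1 was the highest of all 6 libraries, while ANKO 2 and ANKO 3 were the lowest. The log2 fold change was 0.41 with an SE of 0.64 and a 95% interval of −1.24 to 2.07 (adjusted p = 0.867), and it turned to −0.52 without ANKO 1.

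Beside Lars2, the predicted gene Gm42418 is shown here, chosen after its values were seen. It measured 3117, 6633 and 3672 CPM in controls and 12086, 2963 and 2454 CPM in ANKO mice. The ratio of Lars2 to Gm42418 varied little, with 0.0973, 0.0810 and 0.0985 in controls and 0.0868, 0.0963 and 0.108 in ANKO mice. The transcript Lars2-201, of 3894 bases, shares an identical stretch of 52 bases (bases 3278 to 3329) with a transcript of the gene Gm15564. Gm15564 measured 28.3, 36.6 and 24.9 CPM against 63.7, 24.1 and 19.4 CPM and was also highest in ANKO 1. The library of ANKO 1 held the highest skeletal muscle marker sum too (18846 CPM). That sum was 6233, 1583 and 9816 CPM in controls 1 to 3 and 3263 and 102 CPM in ANKO 2 and ANKO 3. Control 2, highest of the controls in Lars2, was thus the lowest of them in muscle markers. The part of any of these features in the Lars2 values was not tested.

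**Figure D4:**
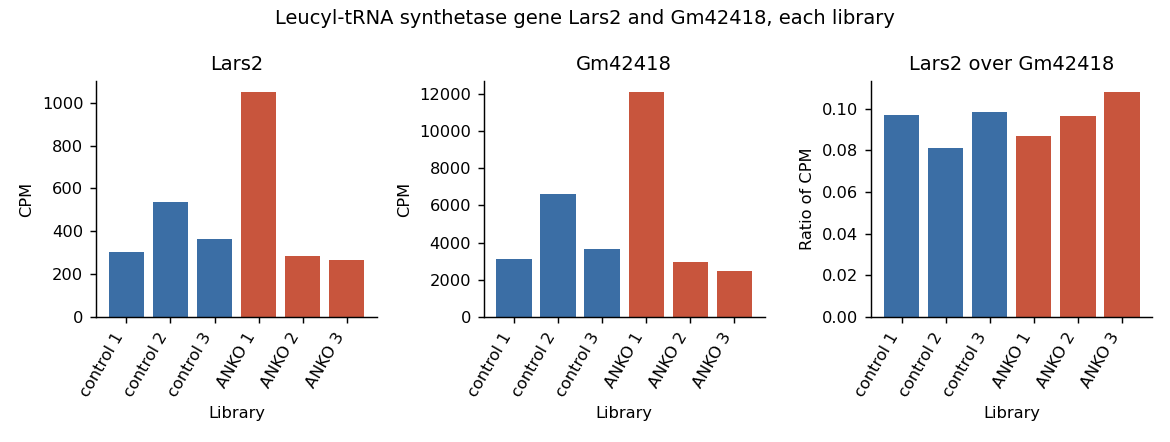
Bars give the level of Lars2 (left, CPM), of Gm42418 (middle, CPM) and their ratio (right) in each of the 6 libraries (x axis), with controls in blue and ANKO mice in red. Both genes peak in ANKO 1, at 1049 and 12086 CPM, and the ratio stays between 0.0810 and 0.108.

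Because of Lars2, the summed mitochondrial level rested on a single gene. With all 16 genes it was 695, 938 and 781 CPM in controls and 1412, 656 and 612 CPM in ANKO mice, a difference of 88.8 CPM that turned to −170.5 CPM without ANKO 1. With Lars2 left out, chosen after seeing the data, the sum was 392, 401 and 419 CPM in controls and 364, 371 and 347 CPM in ANKO mice, and the groups did not overlap. The means of this sum were 404 ± 14.1 and 360 ± 12.1 CPM (SD, n = 3), a ratio of 0.892. With Iars2 left out as well, the means were 288.1 ± 2.60 and 281 ± 7.63 CPM, a ratio of 0.976, so that most of the lower sum was the Iars2 value.

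**Figure D5:**
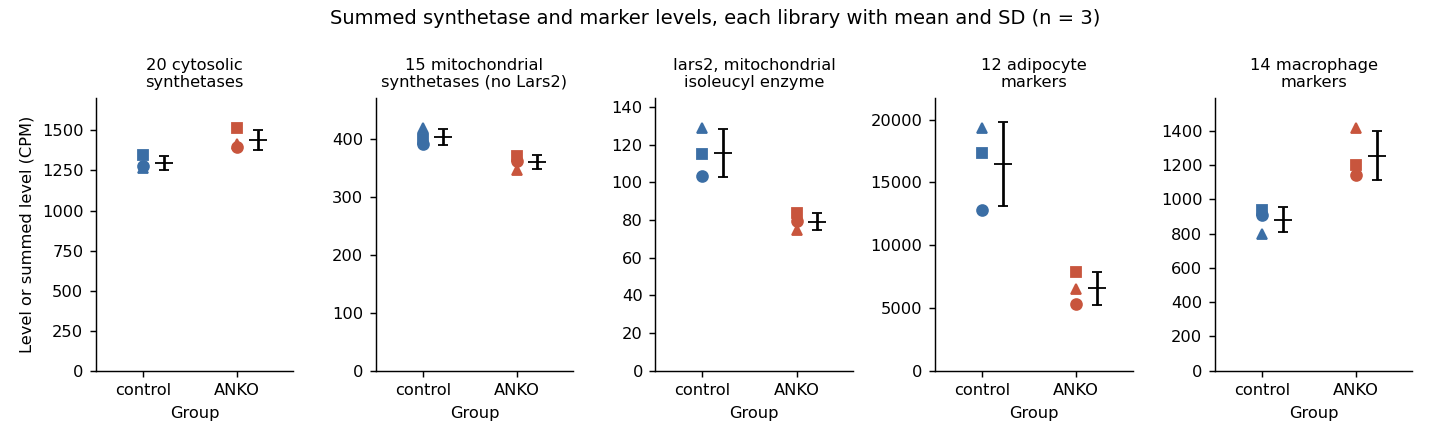
Points give each library's level in CPM (y axis) for control and ANKO mice (x axis), with the mean and SD of 3 mice beside them, for the 20 cytosolic genes summed, the 15 mitochondrial genes without Lars2 summed, Iars2 alone, 12 adipocyte markers and 14 macrophage markers. Groups do not overlap in any panel, with ANKO mice higher in the first and last and lower in the 3 between.

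Each mitochondrial gene was set beside the cytosolic gene for the same amino acid, giving 16 pairs. Eprs stood for both Ears2 and Pars2, and Fars2 was set beside Farsa and not Farsb. The mitochondrial log2 fold change was below the cytosolic one in 13 of 16 pairs. The exceptions were Lars2 (0.41 against 0.08 for Lars), Rars2 (0.22 against 0.01 for Rars) and Vars2 (0.06 against 0.05 for Vars). The widest gap was that of Iars2 and Iars, at −0.70, followed by Pars2 and Eprs at −0.66. Aars2 was at 0.08 where Aars was at 0.42, Nars2 at −0.04 where Nars was at 0.33, Yars2 at 0.01 where Yars was at 0.38 and Sars2 at −0.06 where Sars was at 0.32. These differences between paired genes were not tested.

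Levels between genes were compared per length, as RPKM, reads scaled by exon length and library size, over all annotated exon bases. Vars had the highest cytosolic level, 35.5 ± 4.61 RPKM in controls and 36.8 ± 0.606 RPKM in ANKO mice, followed by Gars (23.3 and 27.7 RPKM) and Wars (18.9 and 20.9 RPKM). Cars (5.17 RPKM in controls), Yars (5.99), Tars (6.94) and Eprs (7.30) had the lowest cytosolic levels. This order depends on the annotated length, which was 18102 exon bases for Eprs against 3119 for Gars and 3447 for Wars. By CPM in controls, Eprs (132) was below only Vars (199) among the cytosolic genes. Among mitochondrial genes Lars2 stood at 36.1 ± 10.98 RPKM in controls, and the others ran from 1.81 RPKM (Nars2) to 13.03 RPKM (Iars2). Iars2 was thus the highest of the 15 mitochondrial genes apart from Lars2, and at 8.91 RPKM in ANKO mice it was still above Rars2 (8.19 RPKM).

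Other genes of transfer RNA charging were taken from a list of 18, which holds scaffold proteins of the multisynthetase complex, the amidotransferase subunits that make mitochondrial glutaminyl-tRNA, and editing and repair enzymes. None of the 18 passed the test in either direction, and 0 of 18 had an unadjusted p under 0.05 in the edgeR fit. Their median log2 fold change was −0.12. The scaffold genes Aimp1, Aimp2 and Eef1e1 were at 0.16, −0.17 and 0.15. The smallest p was that of Prorsd1 (log2 fold change −0.35, adjusted p = 0.401).

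The ATF4 pathway was followed from the kinases down to the targets. Of 16 genes for eIF2 kinases, their regulators, eIF2 and eIF2B subunits and eIF2 phosphatase subunits, 1 rose and none fell. Among all features tested 0.488% rose and 1.10% fell. The median log2 fold change of the 16 genes was −0.0036. The gene that rose was Ppp1r15a (GADD34), the inducible subunit of the phosphatase that removes phosphate from eIF2. It measured 18.6, 19.3 and 17.4 CPM in controls and 30.1, 37.3 and 34.0 CPM in ANKO mice (log2 fold change 0.87, adjusted p = 0.0119). The lowest ANKO mouse was far above the controls. The amino acid sensing kinase gene Eif2ak4 (GCN2) was at 0.08 (adjusted p = 0.787).

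Of 35 tested ATF4 factors and targets 7 rose and 3 fell, beside 0.488% and 1.10% of all features tested. The median log2 fold change of the 35 was 0.27. The gene of ATF4 itself rose, from 72.7, 81.8 and 79.5 CPM in controls to 105.8, 125.1 and 112.0 CPM in ANKO mice (log2 fold change 0.55, adjusted p = 0.0304). Among its partner and downstream factors, Atf3 rose by 2.20 on the log2 scale (adjusted p = 0.00848), Atf5 by 1.48 (adjusted p = 0.0171) and Ddit3 (CHOP) by 0.90 (adjusted p = 0.0419). The cystine transporter gene Slc7a11 rose by 1.59 (adjusted p = 0.00718), the secreted factor gene Gdf15 by 5.20 (adjusted p = 0.0331) from control levels of 0.175, 0.503 and 1.595 CPM, and Mthfd2, a mitochondrial folate enzyme, by 1.00 (adjusted p = 0.0467). In the other direction the glutamine transporter gene Slc1a5 fell by 1.28 on the log2 scale (adjusted p = 0.0107), and the alanine aminotransferase gene Gpt2 fell by 1.66 (adjusted p = 0.0307). Cbs, the first enzyme of transsulfuration, fell by 1.67 (adjusted p = 0.0443).

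Log2 fold changes of the tested factors and targets that did not pass ran from −1.26 (Cth, adjusted p = 0.0580) to 1.88 (Trib3, adjusted p = 0.0880). Among them Xpot, which exports transfer RNAs from the nucleus, was at 0.34 (adjusted p = 0.110). Asns, the asparagine synthetase gene, was at −0.27 (adjusted p = 0.769). Mars shares 1.99% of its exon bases with Ddit3, on the opposite strand, and was at 0.02 where Ddit3 rose. The ATF4 counts moved with single libraries. Of the targets and factors, 3 rose when control 1, control 2 or ANKO 2 was left out, 4 when control 3 was left out and 2 when ANKO 3 was left out. When control 2, ANKO 1, ANKO 2 or ANKO 3 was left out, 1 fell. Slc7a11, Atf3 and Slc1a5 passed in 6 of 6 such fits, and Atf4 in 1 of 6. Macrophage and adipocyte marker sums moved between the same groups, as given above, and their part in the ATF4 and cytosolic synthetase values was not tested.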

How the data were processed

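The authors deposited raw read counts per gene symbol, 1 column per mouse. GRCm38, STAR 2.0.4b, featureCounts 1.45 and Subread are the build and tools listed, per the submitters' processing notes. Per the labels' protocols, RNA came from frozen tissue by Qiazol and RNeasy and was freed of ribosomal RNA with Ribo-Zero Gold. The annotation used for counting and its strand setting were not given in the sources used here. Of 40757 lines, 329 exact repeats were removed, none of a synthetase gene. Gene positions came from GENCODE annotation of the same build. No pair of libraries agreed within sampling noise.

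Counts were tested with edgeR 4.0.16 (R 4.3.3): filterByExpr (minimum count 10, minimum total 15), TMM, and robust quasi-likelihood F tests (robust=TRUE) of ANKO against control, 3 mice each. P-values were adjusted by Benjamini-Hochberg over all 19272 features, with a threshold of 0.05. The common biological coefficient of variation was 0.228. CPM values are TMM-scaled, and log2 fold changes are ANKO over control.

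The synthetase genes, the lists and the markers were chosen with earlier results of these data known, so no list was tested as a set and no p was adjusted over a list alone. Genes were named by rule: members that passed, filled to 6 cytosolic and 4 mitochondrial genes by smallest p, the highest and lowest fold change of each set, Gars and Kars, and from other lists up to 8 genes that passed or else the smallest p. The remaining members are named to account for all 36, and some genes outside the rule are named for their role. Alternatives were scaling by RLE or by the upper quartile, limma-voom (limma 3.58.1), DESeq2 1.42.0, robust=FALSE, no filter, at least 1 CPM in 3 libraries, a replicate block, a skeletal muscle covariate and leaving out each library. The steps were tested on simulated data. Some items are not reported here.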

Additional observations from a re-analysis of the deposited data

How the results depend on the processing

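Among the cytosolic genes 0 passed in the edgeR fit, and 1 (Aars) passed as higher with DESeq2 and 1 with no low-count filter. Of the mitochondrial genes 1 was lower, and this became 0 with limma-voom, robust=FALSE, the replicate block and the skeletal muscle covariate, and ranged from 0 to 1 when each library was left out. ATF4 factors and targets that rose numbered 11 with DESeq2, 2 with the muscle covariate, 5 with the replicate block and 2 to 7 with a library left out, against 7. Those that fell numbered 1 with the muscle covariate, 2 with the replicate block and 1 to 3 with a library left out, against 3. To look for pairing, each gene's group mean of log2 CPM was first subtracted from its libraries. The remainders correlated at 0.0746, −0.0333 and −0.0435 between same-numbered control and ANKO libraries, and at −0.0891 to 0.110 between differently numbered ones. With 3 libraries per group, these values cannot tell whether the replicate numbers pair the mice. The replicate block left 62 genes higher and 145 lower of all features, against 94 and 212. DESeq2 called 388 higher and 498 lower, and leaving out a library gave 20 to 107 higher and 55 to 221 lower.

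The median of the cytosolic genes stayed between 0.0973 and 0.144, while that of the mitochondrial genes turned positive with the muscle covariate (0.0054) and without ANKO 3 (0.0085). Scaling methods moved the median of all features by at most 0.0090. Signs were the same in every fit for 23 of 36 genes, including all 9 cytosolic genes separated upward. The other 13 changed sign in at least 1 fit. Farsb was at 0.00701 with RLE, 0.00681 with DESeq2, 0.0042 with no filter and 0.0129 with the muscle covariate, and Nars2 at 0.0137 with the muscle covariate. With each library left out the log2 fold changes ran from −0.107 to 0.0629 (Farsb), −0.104 to 0.0513 (Nars2), −0.0509 to 0.138 (Farsa), −0.0297 to 0.118 (Hars), −0.0258 to 0.122 (Kars), −0.0649 to 0.0996 (Mars), −0.0381 to 0.112 (Rars), −0.0317 to 0.140 (Vars), −0.0247 to 0.110 (Ears2), −0.522 to 0.738 (Lars2), −0.217 to 0.0871 (Sars2), −0.0598 to 0.0756 (Wars2) and −0.0396 to 0.0601 (Yars2). The mitochondrial sum differed by 88.8 CPM (ANKO minus control) with Lars2 (−170.5 without ANKO 1 to 229.5 without ANKO 3) and by −43.5 CPM without it, a choice made after seeing the data. Causes of these shifts were not tested. Standard errors on the log2 scale ran from 0.073 (Eprs) to 0.18 (Sars2) apart from Lars2 (0.64), which limits what could be detected.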
